A study of Mus musculus with 24 samples.

Results

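The genes described here were 47 mouse genes of ribosome biogenesis, among them 4 subunits of RNA polymerase I (Pol I). They were chosen by symbol from the 24537 rows of a table of raw read counts per gene; the choice was made with earlier results of these data known. RNA came from whole extensor digitorum longus (EDL, mainly fast-twitch) and soleus (SOL, mainly slow-twitch) muscles of 2-month-old mice that carried the 4F cassette (Oct4, Sox2, Klf4 and c-Myc, together OSKM) as a heterozygous allele under a tetracycline operator at Col1a1, with a reverse transactivator at ROSA26 behind a LoxP-STOP-LoxP block. Acta1-Cre+/4Fhet mice (Cre+) also carried a Cre driven by the skeletal actin promoter, which removes the block in myofibers, and Acta1-Cre-/4Fhet mice (Cre-) did not. Both genotypes carried 4F and both received doxycycline (Dox) in the drinking water at 1 mg/ml, with muscles taken after 2.5 days, after 5.5 days and after 8.5 days, so that they differed in the Cre allele. Each muscle, genotype and time had 2 libraries, 24 in all, labelled as separate samples.

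A ribosome is built in the nucleolus, where Pol I transcribes the ribosomal DNA into a long precursor RNA. Small nucleolar ribonucleoproteins (snoRNPs) of the box C/D class direct methylation of this precursor, and those of the box H/ACA class direct its pseudouridylation. The small subunit processome, GTPases, DEAD-box RNA helicases and other assembly factors then cut, fold and package it into both subunits. In skeletal muscle this capacity is known to rise when myofibers grow, and many of the genes are well known targets of Myc, which binds E-box sequences such as CACGTG.

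The promoters of the members were searched for this E-box. RefSeq promoter windows of the GRCm38.p6 build, from 250 bases before to 50 bases after the annotated start, were matched to 41 of the 47 members. Fbl, Npm1, Bop1, Rrp12, Rrs1 and Gnl2 had no entry. CACGTG, which reads the same on both strands, lay in the window of 8 of the 41 members (19.5%), in 2187 of 27025 genes with a window (8.09%) and in 1310 of the 11683 genes with a window that passed the low-count filter (11.2%). The looser motif CANNTG, which also includes CACGTG, was in 24 members (58.5%), against 75% of all genes with a window and 68.9% of those tested. These shares are descriptions of letters in a window and not of binding. The motif lay before the start in Utp18, Imp4 and Nop2, and after it in Wdr43, Mybbp1a, Pes1, Utp20 and Cirh1a (also named Utp4). The 3 windows with the motif upstream are printed 5′ to 3′ on the strand of the gene, over the 150 bases that end just before the start, with CACGTG in capitals; they stand at chr11:93885767-93885916 (minus strand), chr1:34439679-34439828 (plus strand) and chr6:125131733-125131882 (plus strand).
Utp18: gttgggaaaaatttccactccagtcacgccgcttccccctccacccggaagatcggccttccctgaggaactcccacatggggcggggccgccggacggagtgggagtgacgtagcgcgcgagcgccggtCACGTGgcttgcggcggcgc
Imp4: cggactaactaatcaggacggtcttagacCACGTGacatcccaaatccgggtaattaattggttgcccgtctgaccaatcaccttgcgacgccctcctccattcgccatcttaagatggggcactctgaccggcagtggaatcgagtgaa
Nop2: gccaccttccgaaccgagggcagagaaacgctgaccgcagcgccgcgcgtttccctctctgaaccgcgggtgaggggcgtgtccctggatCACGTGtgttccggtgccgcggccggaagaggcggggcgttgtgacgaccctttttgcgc
The motif began 20 bases before the start in Utp18, 121 before it in Imp4 and 60 before it in Nop2.

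Library totals ranged from 36088781 to 54679082 counts, and 3 counts, the least taken as detected, corresponded to 0.0549 to 0.0831 CPM. Levels are given as TMM-scaled FPKM, that is, counts divided by exon length and by library size in the usual FPKM units, after the trimmed-mean scaling used in the tests. Myosin heavy chains matched the muscle labels: Myh4, of fast fibers, lay between 2235 and 8367 in EDL and between 20.03 and 532.4 in SOL libraries, and Myh7, of slow fibers, between 5.233 and 90.39 in EDL and between 1829 and 4015 in SOL. Transcripts of all 4 OSKM genes were called higher in Cre+ EDL muscles at 2.5 and 8.5 days and 2 of them in SOL muscles at each time; cassette and endogenous reads were not separated. Myc was 3.319 and 2.644 in Cre- against 22.16 and 82.42 in Cre+ EDL libraries at 2.5 days, and 2.445 and 3.502 against 75.85 and 71.86 at 8.5 days. In SOL, Myc was 2.543 and 1.934 against 7.39 and 12.59 at 2.5 days and 2.783 and 2.403 against 16.83 and 9.845 at 8.5 days. Thus every Cre+ library of these days lay above the Cre- libraries of its muscle, and the first replicate of Cre+ EDL at 2.5 days was well below the other. Myc was called higher in EDL (log2 fold change 4.12, adjusted p = 0.00016 at 2.5 days; 4.65, adjusted p = 0.000142 at 8.5 days) and not in SOL (2.18, adjusted p = 0.0971; 2.37, adjusted p = 0.056), with p from the quasi-likelihood test of edgeR, adjusted over all genes tested by Benjamini-Hochberg.

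In Cre- muscles all 47 members were expressed, at levels that differed widely between genes. Over the 4 Cre- EDL libraries of 2.5 and 8.5 days, Npm1, the histone-binding nucleolar chaperone nucleophosmin, was the most abundant at 81 ± 3.39 TMM-scaled FPKM (SD, n = 4). The H/ACA protein Nop10 followed at 55.2 ± 5.25 (SD, n = 4) and the processome protein Imp3 at 37.6 ± 1.76 (SD, n = 4). These 3 did not overlap, and they were also the 3 most abundant in Cre- SOL muscles, at 88.9 ± 5.5, 55.5 ± 9.96 and 31.8 ± 4.73 (SD, n = 4). The least abundant in EDL were the processome scaffold proteins Heatr1 at 2.3 ± 0.57 and Utp20 at 2.16 ± 0.187 and the Pol I subunit Polr1e at 1.12 ± 0.28 (SD, n = 4 each). Heatr1 and Utp20 did not differ beyond their spread.

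The first comparison asked how these transcripts differed between Cre+ and Cre- EDL muscles after 2.5 days of Dox. Of the 47 members 23 rose in Cre+ muscles, 24 were not called and none fell. The largest rises were those of Ftsj3, a factor of pre-ribosomal RNA processing (4.7-fold), Utp18 of the processome (3.62-fold), Polr1e (2.78-fold), the helicase Ddx21 (2.63-fold) and Polr1c (2.22-fold). A call required an adjusted p under 0.05 and a log2 fold change beyond 0.5; of all genes tested, 13.8% were called higher and 10.2% lower, against 48.9% higher among the members. The median member log2 fold change was 0.60, with an interquartile range of 0.39 to 0.93, beside a median of -0.05 over all genes tested. The fold change was above 0 in 46 members, against 46.6% of all genes, and both Cre+ libraries lay above both Cre- libraries in 36 members, against 30.7% of all genes on the scaling of the fit. With 2 libraries a group, the smallest 2-sided p that permuting the libraries of any gene exactly can give is 0.333, so the calls rest on a spread shared across genes.

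**Figure D1:**
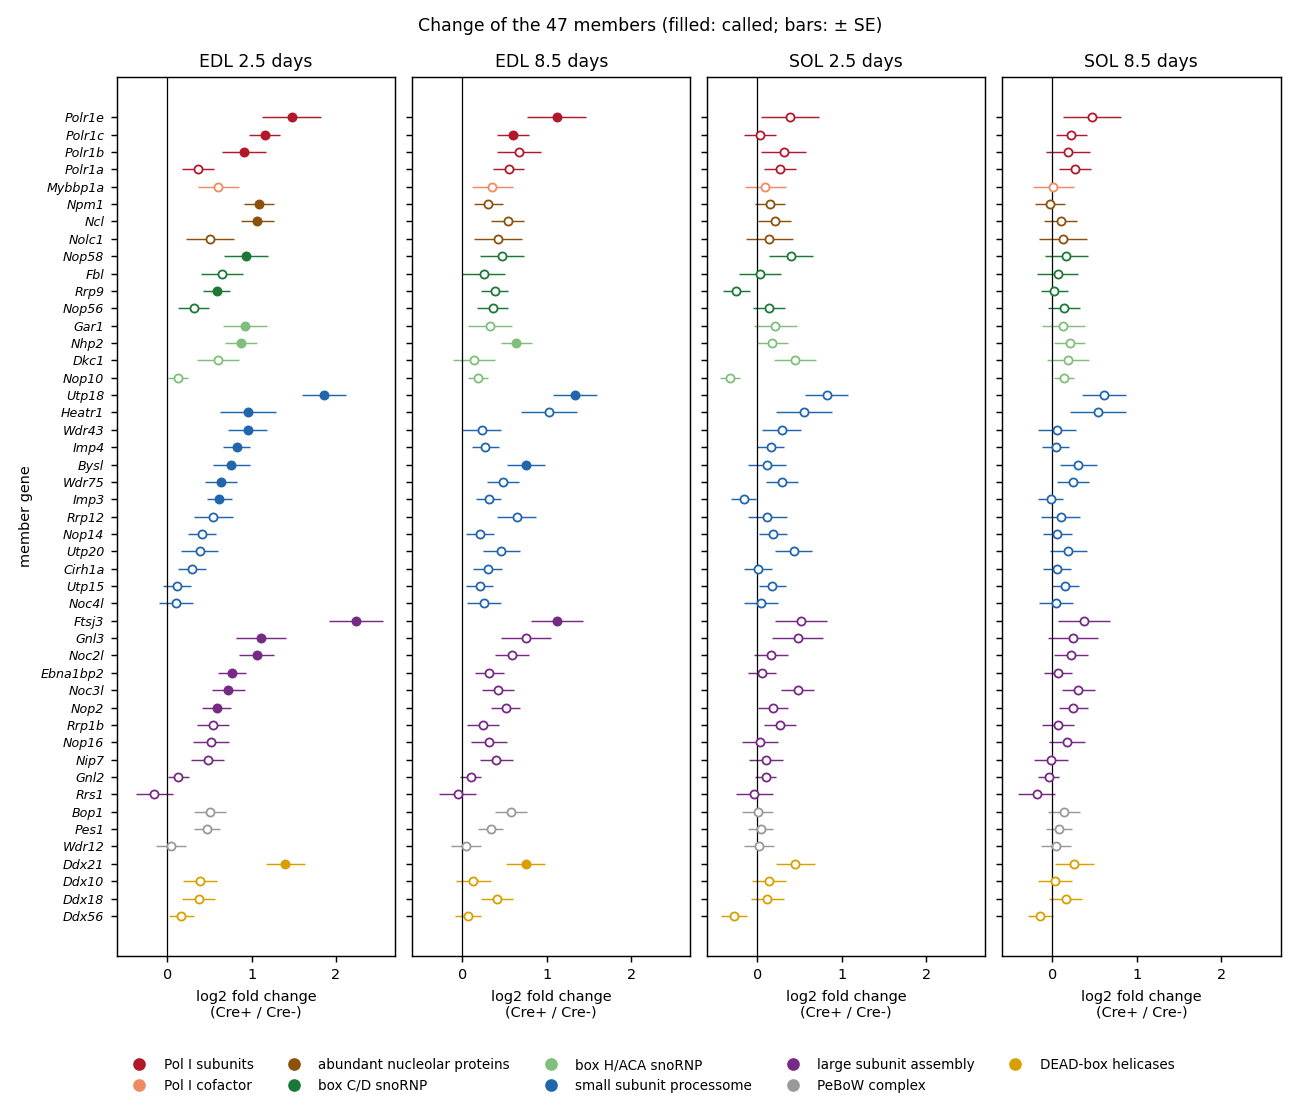
Log2 fold change (Cre+ over Cre-) of each of the 47 members in EDL and SOL muscles after 2.5 and 8.5 days, with standard errors, grouped by role; filled points were called. In EDL at 2.5 days 23 members were called higher, with Ftsj3 at 2.23 the highest, and in SOL none was called.

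Of the Pol I subunits, 3 of 4 rose. Polr1c, which is shared with Pol III, stood at 12.6 and 12.9 TMM-scaled FPKM in the Cre- libraries and at 23.9 and 33.1 in the Cre+ libraries (log2 fold change 1.15, SE 0.19, adjusted p = 0.000769 by edgeR). Polr1e, a Pol I-specific subunit, was at 1.22 and 1.19 against 2.01 and 4.73 (1.47, SE 0.35, adjusted p = 0.00713 by edgeR). Polr1b, of the catalytic core, was at 4.95 and 5.74 against 7.44 and 12.8 (0.91, SE 0.26, adjusted p = 0.0213 by edgeR). In all 3 the groups were apart, and the replicate 2 Cre+ library was the higher. Polr1a, the largest subunit, was at 10.4 and 10.2 against 11.7 and 14.8, and its log2 fold change of 0.36 (SE 0.19, adjusted p = 0.174 by edgeR) was not called although its groups did not overlap. The cofactor Mybbp1a, at 22.6 and 24.7 against 29.7 and 42.6, was not called either (0.60, SE 0.24, adjusted p = 0.0832 by edgeR).

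Among the snoRNP proteins 2 of 4 in each class rose. In the box C/D class, the scaffold Nop58 went from 9.5 and 8.89 to 11.4 and 24 (log2 fold change 0.93, SE 0.26, adjusted p = 0.0175 by edgeR), and Rrp9 rose by 0.59. Fbl, the fibrillarin methyltransferase, was at 9.09 and 11.1 against 11.8 and 20 (0.65, adjusted p = 0.0708 by edgeR). Nop56, the partner of Nop58, overlapped between groups, at 20.1 and 19.6 against 18.8 and 30.7 (0.31, adjusted p = 0.238 by edgeR). Fbl and Nop56 were thus not called. In the box H/ACA class, Nhp2 went from 15.2 and 18.4 to 24 and 38 (0.87, SE 0.18, adjusted p = 0.00386 by edgeR) and Gar1 from 6.45 and 6.84 to 8.82 and 16.5 (0.92, SE 0.26, adjusted p = 0.0186 by edgeR). Dkc1, the pseudouridine synthase dyskerin, was at 11.2 and 10.7 against 10.7 and 22.6, so that only the replicate 2 Cre+ library was high (0.60, adjusted p = 0.0946 by edgeR). Nop10 was nearly level, at 60.2 and 57.7 against 60.6 and 68.6 (0.12, adjusted p = 0.46 by edgeR).

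Of the abundant multifunctional nucleolar proteins 2 of 3 rose. Ncl (nucleolin) went from 26 and 24.6 to 38.4 and 68.3 TMM-scaled FPKM (log2 fold change 1.07, SE 0.20, adjusted p = 0.00168 by edgeR), and Npm1 from 82.8 and 76.3 to 132 and 208 (1.09, SE 0.18, adjusted p = 0.000713 by edgeR). The third of this group, the snoRNP chaperone Nolc1, overlapped between groups at 11.5 and 13 against 12.2 and 22.6 (0.50, adjusted p = 0.208 by edgeR).

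Of the small subunit processome and related factors 7 of 13 rose, with a median of 0.62; they were Utp18, Heatr1, Wdr43, Imp4, Bysl, Wdr75 and Imp3. Utp18 stood at 2.4 and 2.69 in Cre- and at 6.38 and 12.2 in Cre+ libraries (log2 fold change 1.86, SE 0.26, adjusted p = 0.000327 by edgeR). Noc4l, which did not pass, was at 8.37 and 10.8 against 9.15 and 11.6 (0.10, adjusted p = 0.74 by edgeR). Of the large subunit factors 6 of 11 rose, with a median of 0.58: Ftsj3, the nucleostemin GTPase Gnl3, Noc2l, Ebna1bp2, Noc3l and Nop2, a methyltransferase. Ftsj3 stood at 14.2 and 14.6 against 38.2 and 98.4 (2.23, SE 0.32, adjusted p = 0.000339 by edgeR), a gap between the Cre+ libraries wider than the range of the Cre- libraries. Rrs1 had the lowest fold change of the 47, at 10.1 and 13.2 against 9.04 and 12 (-0.15, SE 0.22, adjusted p = 0.638 by edgeR).

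The PeBoW complex (Pes1, Bop1 and Wdr12), which processes large subunit precursors, had no member called and a median of 0.47. Wdr12 overlapped fully between groups, at 8.3 and 8.9 against 6.95 and 10.9 (0.04, adjusted p = 0.884 by edgeR). Pes1, with 0.47 and an adjusted p of 0.037 by edgeR, passed on p but not on fold. Of the DEAD-box helicases Ddx21 alone was called, from 10.3 and 10.6 to 19.8 and 35.6 (1.40, SE 0.23, adjusted p = 0.000894 by edgeR), while Ddx10, Ddx18 and Ddx56 lay between 0.16 and 0.39.

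**Figure D2:**
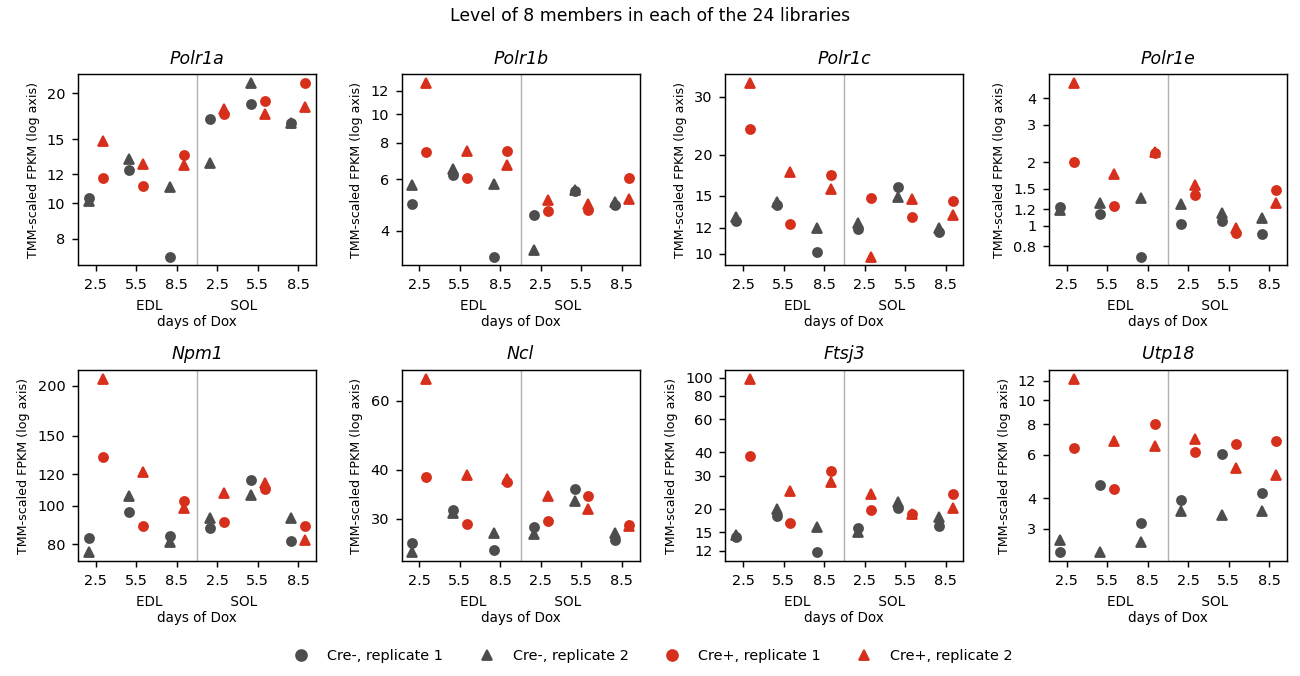
TMM-scaled FPKM (log axis) of 8 members (Pol I subunits, Npm1, Ncl, Ftsj3 and Utp18) in each of the 24 libraries, by muscle, genotype and day of Dox; each point is 1 library. At 2.5 days in EDL the replicate 2 Cre+ library was the highest for the genes that rose, with Ftsj3 at 98.4 against 38.2 in the other Cre+ library.

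How far the count depended on a single library was measured by leaving each out. From here on, a share of all genes called counts both directions unless higher or lower is named. Without Cre+ replicate 2, the library with the highest Myc, 8 members were called, against 12.7% of all genes, and without Cre+ replicate 1, 39, against 27.1%. Without either Cre- library 12 were called, against 16.2% and 16% of all genes. The median member fold change ranged from 0.26 to 0.86 over these fits. Ncl, Npm1, Utp18, Polr1c, Ddx21, Ftsj3, Noc2l and Imp4 were called higher in every one of them and under every other alternative tried. The summed level of the 47 members was 827.9 in Cre+ replicate 1 and 1324 in Cre+ replicate 2, against 560.9 to 789.9 over the 6 Cre- EDL libraries. When only the 4 libraries of the comparison were fitted by edgeR, 8 of 47 members were called, all of them higher. Of all genes, 16.8% were called in either direction in that fit. The share of all genes called higher alone was not taken there, so the members were not set against it.

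The plot of Myc against the members' summed level shows these libraries side by side. All libraries share the scaling and 2 a group do not give a relation within groups, so no correlation was computed. At 8.5 days the Cre+ EDL libraries, with Myc at 75.85 and 71.86, had member sums of 790.9 and 800.4, well under the 1324 of the 2.5-day library with Myc at 82.42.

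**Figure D3:**
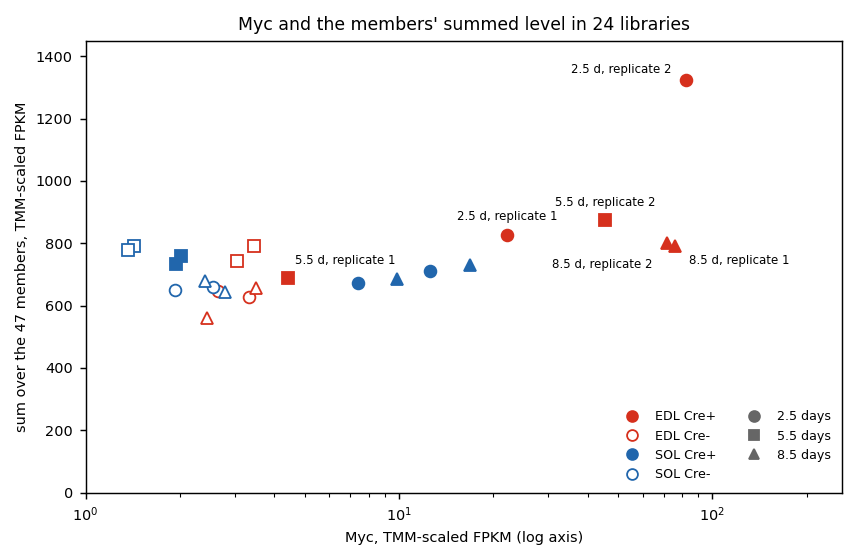
Summed TMM-scaled FPKM of the 47 members (vertical) against Myc TMM-scaled FPKM (horizontal, log axis) in the 24 libraries, by muscle, genotype and day. One EDL Cre+ library of 2.5 days stands at 1324, above the other 23 libraries, which lie between 560.9 and 873.7.

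After 8.5 days of Dox, fewer members passed in EDL. Utp18, Ftsj3, Polr1e, Bysl, Ddx21, Nhp2 and Polr1c were higher in Cre+ muscles, 7 of 47 (14.9%, against 7.63% of all genes called higher), and none was lower, against 6.5% of all genes. All 7 were also called at 2.5 days, 16 members were called at 2.5 days alone, and 24 on neither day. The median was 0.38 beside -0.02 over all genes, and it ranged from 0.29 without Cre- replicate 1 to 0.59 without Cre- replicate 2. The fold change was above 0 in 46 members against 48.4% of all genes, and 34 had both Cre+ libraries above both Cre- libraries, against 26.6%. On the scaling of all 24 libraries, in which levels are printed here, these were 31 members and 25% of all genes. Utp18 was at 3.17 and 2.65 in Cre- and at 8.02 and 6.49 in Cre+ libraries (log2 fold change 1.34, SE 0.26, adjusted p = 0.00462 by edgeR). Ftsj3 was at 11.8 and 16.1 against 31.9 and 27.9 (1.12, SE 0.31, adjusted p = 0.0277 by edgeR). In contrast to 2.5 days, the Cre+ libraries lay close to each other for both genes.

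Polr1e was at 0.716 and 1.36 against 2.2 and 2.23 (1.12, SE 0.35, adjusted p = 0.0461 by edgeR) and Polr1c at 10.1 and 12 against 17.4 and 15.7 (0.60, SE 0.19, adjusted p = 0.0463 by edgeR). Bysl, a factor of small subunit maturation, was at 6.18 and 9.05 against 12.5 and 12.8 (0.76, SE 0.22, adjusted p = 0.0368 by edgeR). Heatr1 was not called, at 1.53 and 2.9 against 4.65 and 4.27 (1.03, SE 0.33, adjusted p = 0.0543 by edgeR). For Polr1e, Bysl and Heatr1 the first Cre- library was well below the other. Polr1a (7.15 and 11.1 against 13.5 and 12.7) and Polr1b (3.27 and 5.77 against 7.47 and 6.73) showed the same spread and were not called, with adjusted p of 0.0689 and 0.104 by edgeR. Nhp2 passed, at 16.5 and 17.5 against 25.2 and 26.9 (0.64, SE 0.18, adjusted p = 0.0339 by edgeR).

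The other core snoRNP proteins and the abundant nucleolar proteins did not pass at 8.5 days. Npm1 was at 84 and 81 against 103 and 98.5 (log2 fold change 0.31, adjusted p = 0.262 by edgeR) and Ncl at 25 and 27.5 against 37.4 and 37.9 (0.54, adjusted p = 0.082 by edgeR). Nop58 was at 10.2 and 10.7 against 13.1 and 15.4, and Gar1 at 5.89 and 9.23 against 8.59 and 10.1. Except for Gar1 the groups of these genes were apart. Fbl (7.41 and 12.5 against 10.8 and 12.6), Dkc1 (13.5 and 10.5 against 12.4 and 13.6) and Nop10 (54.7 and 48.1 against 53.8 and 61.3) overlapped, and Nop56 (15.1 and 18.6 against 20.9 and 21.7) did not. The lowest fold changes were those of Rrs1 (8.71 and 13.3 against 9.87 and 11), Wdr12 (7.48 and 7.52 against 7.1 and 8.11) and Ddx56 (7.6 and 9.05 against 8.33 and 8.84), at -0.06, 0.04 and 0.07. Leaving out each library moved the count from 0 (without Cre+ replicate 1, against 4.67% of all genes) to 18 (without Cre- replicate 2, against 16.9%). Utp18 alone was called without Cre- replicate 1 (7.9% of all genes) or without Cre+ replicate 2 (10.7%), so that the share of members was below that of all genes in 3 of the 4 fits.

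Whether the change differed between the days was tested directly. No member differed by edgeR at the threshold, and neither did any of the 15372 genes tested (percent called 0). An unadjusted p under 0.05 by edgeR was found for 4 members, against 9.56% of all genes. DESeq2 called 0 members, against 0.709% of all genes. The change at 8.5 days was above that at 2.5 days in 12 of 47 members, against 49.5% of all genes, with a median difference of -0.20. Ftsj3 differed by -1.11 (adjusted p = 0.441 by edgeR) and Npm1 by -0.78 (adjusted p = 0.365 by edgeR). Leaving out each library moved the median difference from -0.49 to 0.14: it was -0.49 without Cre+ replicate 1 of 2.5 days, where 6 members were called against 2.61% of all genes, 0.14 without Cre+ replicate 2 of 2.5 days, close to 0 without Cre- replicate 2 of 8.5 days and -0.33 without Cre- replicate 1 of 8.5 days. The direction of this difference thus rested on Cre+ replicate 2 of 2.5 days.

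**Figure D4:**
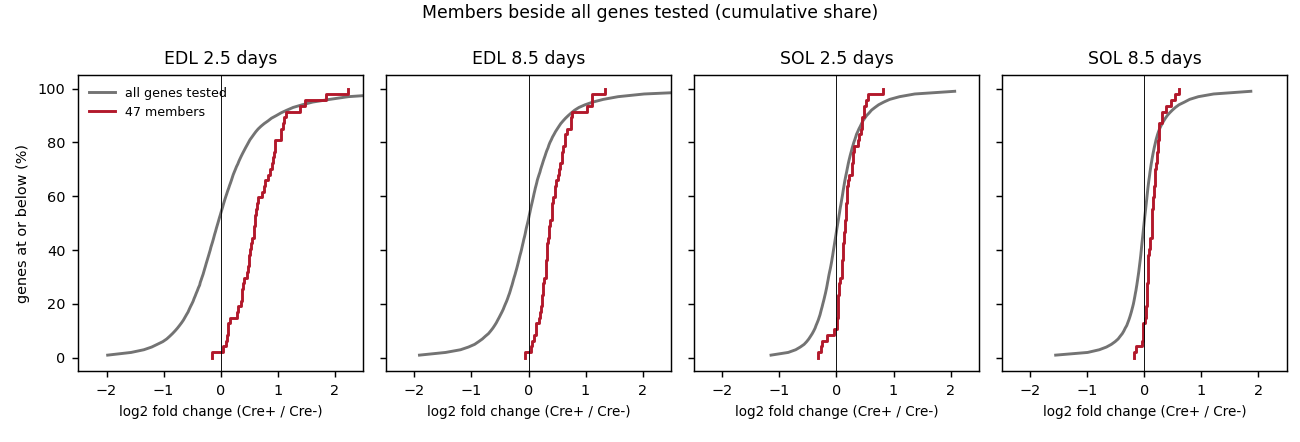
Cumulative distribution of log2 fold change (Cre+ over Cre-) for the 47 members and for all genes tested, in EDL and SOL at 2.5 and 8.5 days; the horizontal axis ends at 2.5. The members' median was 0.60 against -0.05 for all genes in EDL at 2.5 days, and 0.15 against 0.02 in SOL at 2.5 days.

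In SOL muscles no member was called at either time by edgeR. Of all genes, 0.384% were called at 2.5 days and 0.631% at 8.5 days. DESeq2 on the same libraries also called 0 members, against 1.86% and 0.86% of all genes. An unadjusted p under 0.05 by edgeR was found for 3 and 1 members, against 13.4% and 6.6% of all genes. The fold change was above 0 in 42 members at 2.5 days (52.9% of all genes) and in 41 at 8.5 days (48.7%), with medians of 0.15 and 0.13 beside 0.02 and -0.01. Leaving out each library moved the median from 0.12 to 0.21 at 2.5 days. At 8.5 days it fell to 0.065 without Cre+ replicate 1 and to 0.076 without Cre- replicate 1, and was 0.19 without Cre- replicate 2. Both Cre+ libraries were above both Cre- libraries in 25 members at 2.5 days (25.8% of all genes) and in 26 at 8.5 days (19.8%), and below them in 3 at 2.5 days (22.7%). On the scaling of the printed levels, 23 members (24.5% of all genes) were above at 2.5 days and 25 (19.2%) at 8.5 days, and 4 (24.4%) and 1 (19.9%) were below. Utp18 had the highest fold change on both days, at 3.94 and 3.56 against 6.14 and 6.95 at 2.5 days (0.82, SE 0.26, adjusted p = 0.193 by edgeR) and 4.21 and 3.54 against 6.8 and 4.96 at 8.5 days (0.61, SE 0.26, adjusted p = 0.677 by edgeR). Ftsj3 was at 15.8 and 15.1 against 19.6 and 23.9 at 2.5 days (0.51, adjusted p = 0.511 by edgeR) and at 16.2 and 18.1 against 24 and 20.4 at 8.5 days (0.38, adjusted p = 0.958 by edgeR). For both genes the Cre+ libraries lay above the Cre- libraries. Their fold changes were below those in EDL, but in the test between muscles below only the difference of Ftsj3 at 2.5 days was called.

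Neither the abundant nucleolar proteins nor the Pol I subunits were called in SOL. Npm1 was at 88 and 93.1 against 91 and 107 at 2.5 days and at 81.5 and 93 against 88.6 and 81.8 at 8.5 days. Ncl was at 28.6 and 27.4 against 29.6 and 34.3, and at 26.6 and 27.6 against 28.9 and 28.8. Polr1a was at 17 and 12.9 against 17.5 and 18.1, and at 16.6 and 16.6 against 21.3 and 18.3. Npm1 overlapped between genotypes at both times, and the other 2 did not. Polr1b was at 4.53 and 3.45 against 4.68 and 5.09, and at 4.89 and 5.02 against 6.06 and 5.15. Polr1e was at 1.02 and 1.27 against 1.4 and 1.56, and at 0.914 and 1.09 against 1.48 and 1.28. Polr1c at 8.5 days was at 11.7 and 12 against 14.4 and 13.1. In these 3 subunits the Cre+ libraries were above the Cre- libraries, except in Polr1c at 2.5 days, given below with the test between muscles.

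Among the core snoRNP proteins in SOL, Nop58 was at 8.26 and 8.64 against 9.96 and 12.1 at 2.5 days and at 8.3 and 10.5 against 11.1 and 9.9 at 8.5 days. Dkc1 was at 7.5 and 8.2 against 10.2 and 10.9, and at 7.6 and 8.22 against 9.41 and 8.45. Nhp2 was at 15.2 and 16.4 against 17.6 and 17.8, and at 15.9 and 17.2 against 20.7 and 17.3. The Cre+ libraries of these 3 genes lay above the Cre- libraries at both times, except Nop58 at 8.5 days. Gar1 was at 7.5 and 8.46 against 8.82 and 9.48, and at 8.77 and 9.48 against 10.7 and 9.18. Nop56 was at 20.6 and 16.4 against 19.1 and 21, and at 19.4 and 19.4 against 21.1 and 21.4. Fbl was at 12.5 and 14.3 against 14.3 and 12.9, and at 12.8 and 14 against 14.1 and 13.8. The groups overlapped for Gar1 at 8.5 days, Nop56 at 2.5 days and Fbl at both times. Nop10 at 8.5 days was at 46.9 and 47 against 52.1 and 50.6. Nop10, Ddx56 and Rrp9 were lower in both Cre+ SOL libraries at 2.5 days on either scaling, and Imp3 on that of the printed levels, at 32.7 and 37.4 against 29.7 and 32.2. Of these Nop10, at 62.4 and 65.7 against 54.2 and 46.7, had the lowest value (-0.33, adjusted p = 0.25 by edgeR).

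Whether EDL and SOL differed in their response was tested as the difference of the changes. At 2.5 days Ftsj3 and Polr1c rose more in EDL, 2 of 47, and none rose less. Of all genes, 3.36% were called higher and 0.891% lower, 4.25% together, so in this fit, which has no block, the share of the members was near the background. The difference was 1.72 for Ftsj3 (SE 0.44, adjusted p = 0.0459 by edgeR) and 1.12 for Polr1c (SE 0.26, adjusted p = 0.0352 by edgeR); in SOL Polr1c was at 11.9 and 12.4 against 14.7 and 9.8. The change was larger in EDL in 44 of 47 members, with a median difference of 0.45, against 45.3% of all genes. Muscles of the same number deviated together, so the number was also fitted as a replicate block, which gave 7 members: Ftsj3, Npm1, Ddx21, Imp3, Ncl, Rrp9 and Polr1c, against 6.63% of all genes. DESeq2 gave 10, against 7.33%. Leaving out each library moved the count from 0 (against 0.739% to 1.84% of all genes in the fits with no call) to 20 (against 11.3%, without Cre+ EDL replicate 1), and the median difference from 0.14 (without Cre+ EDL replicate 2) to 0.73 (without Cre+ EDL replicate 1). Without Cre+ EDL replicate 2 the difference of Ftsj3 was 0.90. At 8.5 days 0 members were called by edgeR (0.592% of all genes) and by DESeq2 (1.74%). None had an unadjusted p under 0.05 by edgeR, against 11.2% of all genes. The change was larger in EDL in 45 of 47 members, against 48.3% of all genes, with a median difference of 0.27. That median was 0.14 without Cre- EDL replicate 1 and 0.47 without Cre- EDL replicate 2.

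**Figure D5:**
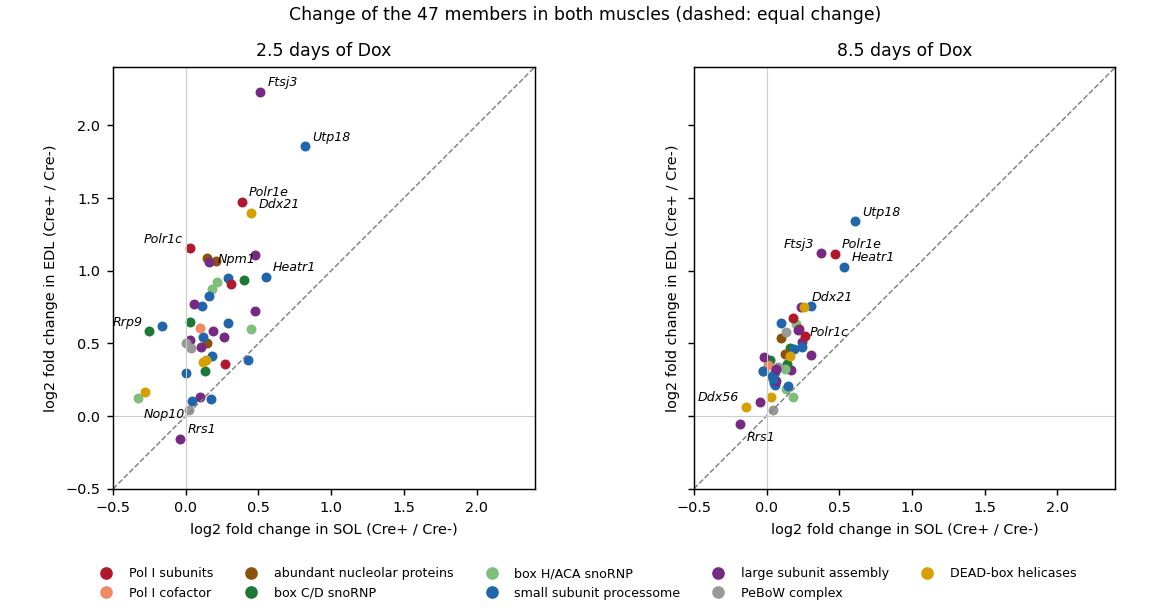
Log2 fold change (Cre+ over Cre-) in EDL (vertical) against SOL (horizontal) for the 47 members at 2.5 and 8.5 days, with the line of equal change. At 2.5 days 44 members and at 8.5 days 45 members lie above the line, and Ftsj3 and Polr1c at 2.5 days were called different.

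The muscles of Cre- mice were compared as the background of these differences. At 2.5 days no member was called different between Cre- EDL and Cre- SOL by edgeR, where 16% of all genes were. An unadjusted p under 0.05 by edgeR was found for 2 members, against 30.5% of all genes. DESeq2 called 2, against 13.1% of all genes. At 8.5 days 3 of 47 members were lower in EDL, against 9.53% of all genes, and none was higher, against 8.65%. Together 18.2% of all genes were called. Polr1a was at 7.15 and 11.1 in EDL and at 16.6 and 16.6 in SOL (log2 fold change -0.85, SE 0.19, adjusted p = 0.00751 by edgeR). Rrp12, of pre-ribosome export, was at 6.38 and 10.1 against 14.9 and 13.6 (-0.78, SE 0.23, adjusted p = 0.0316 by edgeR), and the helicase Ddx56 at 7.6 and 9.05 against 14.8 and 12.9 (-0.72, SE 0.15, adjusted p = 0.00493 by edgeR). The groups did not overlap in any of the 3, and the first Cre- EDL library was the lowest in each. Without that library the median member log2 fold change was 0.03, beside -0.01 over all genes. Without the other Cre- EDL library this median was -0.36, beside -0.05 over all genes. At 2.5 days Polr1a and Ddx56 were not called between Cre- EDL and Cre- SOL. Their log2 fold changes were -0.51 (adjusted p = 0.0811 by edgeR) and -0.49 (adjusted p = 0.037 by edgeR, under the fold threshold).

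The 5.5-day muscles, which the study does not report, were fitted with the other 16 libraries. Its methods state that samples lacking OSKM overexpression were set aside as outliers, without naming them. No member was called in EDL or in SOL, by edgeR or by DESeq2. In EDL 0.304% of all genes were called by edgeR and 0.854% by DESeq2, and in SOL 0% by both. An unadjusted p under 0.05 by edgeR was found for 0 members in EDL, against 8.44% of all genes. In SOL it was found for 1 member, against 3.86%. The OSKM transcripts set these libraries apart: in EDL, Myc was at 3.049 and 3.451 in Cre- and at 4.411 and 45.39 in Cre+ libraries, and in SOL it was at 1.427 and 1.364 against 1.941 and 2.016. Oct4 (Pou5f1) was at 0.03153 and 0 against 1.073 and 29.35 in EDL, and at 0.01485 and 0 against 0.08122 and 0.4003 in the SOL libraries labelled Cre+, so induction was low in 3 of the 4 libraries labelled Cre+. The member sum was 687.4 in the Cre+ EDL library with little Myc and 873.7 in the other. Ftsj3 was at 18.3 and 20 against 16.9 and 24.9, Utp18 at 4.52 and 2.42 against 4.33 and 6.81, and Polr1c at 14.1 and 14.4 against 12.3 and 17.8. In each, the Cre+ library with high Myc was above the Cre- libraries and the other was below a Cre- library. Ddx21, at 13.9 and 14.2 against 13.2 and 19.1, and Heatr1, at 2.94 and 3.03 against 2.78 and 4.09, overlapped in the same way. Their fold changes, at 0.20 each, were among the 5 highest, which did not include Ftsj3 and Polr1c. The lowest fold changes in EDL were those of Ddx56 (11 and 12.2 against 8.69 and 10.9), Utp15 (2.94 and 3.08 against 2.49 and 2.75) and Noc4l (11.4 and 12.8 against 10.1 and 11.7), at -0.24, -0.20 and -0.14. Both Cre+ libraries of Ddx56 and Utp15 lay below the Cre- libraries.

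The other named genes at 5.5 days were mostly close between genotypes. The median log2 fold change of EDL was 0.05 and that of SOL -0.09, and the fold change was above 0 in 27 members (48.4% of all genes) and in 10 members (51.1% of all genes). The sign of the EDL median rested on single libraries: it was -0.14 without Cre+ replicate 2 and 0.18 without Cre+ replicate 1, while that of SOL stayed between -0.11 and -0.08. In EDL, Npm1 was at 96.6 and 106 against 88.8 and 122, and Ncl at 31.6 and 31 against 29.2 and 38.8. Polr1a was at 12.3 and 13.2 against 11.2 and 12.8, Polr1b at 6.21 and 6.53 against 6.05 and 7.46, and Polr1e at 1.14 and 1.29 against 1.24 and 1.77. These 5 genes overlapped between genotypes. Of the core snoRNP proteins in EDL, Nop58 was at 9.08 and 9.92 against 8.88 and 12, Nop56 at 23.2 and 23.2 against 19.6 and 22.6, and Fbl at 11.3 and 11.3 against 10.9 and 12.7. Dkc1 was at 13.3 and 14.7 against 10.9 and 15.9, Nhp2 at 16.4 and 17.9 against 17.3 and 23.2, Gar1 at 7.18 and 8.46 against 7.67 and 10.2, and Nop10 at 63.6 and 68 against 59.7 and 68.5. Nop56 was lower in both Cre+ libraries and the other 6 overlapped. The summed markers of erythroid cells and fibroblasts were higher, and those of satellite cells and of skeletal muscle lower, in both Cre+ EDL libraries of 5.5 days, and their part was not tested.

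In SOL at 5.5 days, Npm1 was at 116 and 107 against 110 and 114 and Ncl at 35.8 and 33.4 against 34.2 and 31.8. Polr1a was at 18.7 and 21.4 against 19 and 17.6, Polr1b at 5.49 and 5.53 against 4.72 and 4.96, Polr1c at 15.9 and 14.8 against 12.9 and 14.6, and Polr1e at 1.05 and 1.15 against 0.922 and 0.973. Polr1b, Polr1c and Polr1e were lower in both Cre+ libraries, and in all 21 of the 47 members were, against 18% of all genes. The summed markers of Schwann cells (63.1 to 88.3 in Cre-, 128 to 139 in Cre+) and of satellite cells and myoblasts (33.7 to 35.8 against 36.3 to 37.8) also lay apart between these groups, and their part in the result was not tested. Nop58 was at 7.75 and 8.2 against 9.19 and 6.85, Nop56 at 22.9 and 25.7 against 21.4 and 24.6, Fbl at 16 and 15.5 against 15.3 and 14.3, and Dkc1 at 8.09 and 7.95 against 9.11 and 9.26. Nhp2 was at 18.3 and 17 against 17.5 and 19.9, Gar1 at 10.3 and 9.91 against 10 and 9.3, and Nop10 at 71.3 and 60.5 against 57.1 and 67.4. Ftsj3 was at 20.3 and 21.8 against 18.9 and 18.8, and Utp18 at 6.05 and 3.42 against 6.61 and 5.28. Dkc1 was the only one of the core snoRNP proteins that was higher in both Cre+ libraries.

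Further genes of the pathway, in 6 lists of 131 genes in all, were described in the same way. In EDL at 2.5 days 37 of them rose and 1 fell, with a median of 0.35, and at 8.5 days 18 rose. These were 28.2% and 13.7% of the list called higher, beside 13.8% and 7.63% of all genes, and the single fall stands beside 10.2% called lower. None of the 131 was called in SOL at either time. Calls in these lists were not recounted with single libraries left out. Of other small subunit factors 12 of 38 rose at 2.5 days and 7 at 8.5 days, led by Tsr1 (log2 fold change 1.39, adjusted p = 0.000888 by edgeR at 2.5 days) and Aatf (1.09, adjusted p = 0.00357 by edgeR). Of other large subunit factors 13 of 42 and 6 rose, led by Mak16 (1.45, adjusted p = 0.000579 by edgeR) and Lyar (1.41, adjusted p = 0.00078 by edgeR).

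Of the other Pol I subunits, its factors and subunits shared between polymerases, 3 of 18 rose at 2.5 days and 0 at 8.5 days, led by Polr2e, a subunit shared by the nuclear polymerases (log2 fold change 1.33, adjusted p = 0.000907 by edgeR), and Taf1d, of the Pol I promoter factor (1.18, adjusted p = 0.00399 by edgeR). At 16.7% this share was near the 13.8% of all genes called higher. Of the Pol III subunits, which transcribe transfer RNA and the smallest ribosomal RNA, 5 of 10 rose at 2.5 days and 3 at 8.5 days, led by Polr3g (2.53, adjusted p = 0.000892 by edgeR) and Polr3b (1.27, adjusted p = 0.00084 by edgeR). Of the snoRNP assembly factors 3 of 10 rose at 2.5 days, among them Shq1 (0.99, adjusted p = 0.0348 by edgeR) and Naf1 (0.69, adjusted p = 0.0465 by edgeR), both of which act on H/ACA particles, and Znhit3 fell (-0.51, adjusted p = 0.037 by edgeR). At 8.5 days 2 rose. Of the RNA exosome, which trims precursor RNA, 1 of 13 rose at 2.5 days, the nuclease Dis3 (0.76, adjusted p = 0.0136 by edgeR), and 0 at 8.5 days, a share of 7.69% that was below that of all genes.

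Markers of cell types moved with some of these counts. Of 9 skeletal muscle genes, 5 were lower in Cre+ EDL at 2.5 days and 3 at 8.5 days, and their summed level went from 66120 to 76150 in Cre- to 31520 to 40110 in Cre+ libraries at 2.5 days and from 59680 to 71830 to 33370 to 41490 at 8.5 days; none was called in SOL. Of 6 endothelial genes, 4 were lower in Cre+ EDL at 2.5 days, with sums of 92.2 to 111.7 against 65.6 to 71.2. None of 10 genes of proliferating cells was called, and their sums overlapped in EDL at 2.5 days (0.6506 to 1.158 in Cre- against 0.7572 to 1.394 in Cre+). No gene of satellite cells and myoblasts, macrophages and monocytes, fibroblasts, Schwann cells, adipocytes or erythroid cells was called in either muscle at 2.5 or 8.5 days. Cre+ EDL replicate 2 of 2.5 days, the library with the highest member sum, nevertheless stood outside the other 3 libraries of that comparison in the sums of satellite cells and myoblasts (19.19 against 40.94 to 48.58), macrophages and monocytes (46.36 against 59.38 to 81.08), fibroblasts (660.3 against 1035 to 1221), Schwann cells (137.5 against 154 to 241.2), erythroid cells (365.5 against 616.3 to 1175) and, in the other direction, adipocytes (55.73 against 22.39 to 34.45). Some summed levels were apart between the groups. At 8.5 days those of proliferating cells were 2.417 to 3.349 in Cre- and 3.973 to 6.142 in Cre+ SOL, and those of macrophages and monocytes 111.1 to 112.9 against 117.8 to 144.9 in EDL and 86.26 to 99.2 against 113.1 to 129.6 in SOL. Fibroblast sums were 1057 to 1134 against 1183 to 1477 in EDL at 8.5 days and 461.5 to 469.1 against 566.2 to 643 in SOL at 2.5 days. In Cre+ SOL at 2.5 days the sums were lower for skeletal muscle (45490 to 47350 against 55440 to 67520), endothelial cells (106.6 to 113.5 against 117.9 to 137.2), satellite cells and myoblasts (29.37 to 32.42 against 34.5 to 35.04) and erythroid cells (138.3 to 199.8 against 302.4 to 304). Erythroid sums were also lower in Cre+ SOL at 8.5 days (264.7 to 289.8 against 302.3 to 314.9). In these muscles fewer cells of a type and less RNA per cell cannot be told apart, and the part of these shifts in the members' values was not tested. Of 5 liver genes, 3 were lower in Cre+ EDL and 5 in Cre+ SOL at 8.5 days, with sums of 5.285 to 6.496 against 0.6857 to 0.791 and of 18.62 to 82.95 against 0.9001 to 0.9147.

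Some members share sequence with an antisense neighbor, and whether the counting used strand was not given in the sources used here. Of such neighbors Fbxo10 (opposite Polr1e) was also higher in EDL, by 1.21 (adjusted p = 0.00177 by edgeR) at 2.5 days and 1.14 (adjusted p = 0.00517 by edgeR) at 8.5 days, and so was Ccnd3 (opposite Bysl), by 0.84 (adjusted p = 0.00947 by edgeR) and 0.96 (adjusted p = 0.00838 by edgeR). If strand was not used, reads of these pairs cannot be told apart, and the values of Polr1e and Bysl are uncertain to that degree. Mpp1 (opposite Dkc1) rose and Idh3b (opposite Nop56) fell in EDL at both times, and neither member was called. The neighbors of Nhp2, Gnl3 and Noc2l were not called, and Ftsj3, Utp18, Ddx21, Polr1c, Npm1 and Ncl had no protein-coding gene on the other strand in the annotation.

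The members called in EDL at 2.5 days carried CACGTG in their promoter window in 4 of 22 (18.2%) and those not called in 4 of 19 (21.1%). Utp18, Imp4 and Nop2, whose windows are printed above, were called, as was Wdr43. Mybbp1a, Pes1, Utp20 and Cirh1a, which hold the motif after the start, were not. Ftsj3 lies at chr11:106249144-106255802 (mm10, minus strand), Polr1c at chr17:46243920-46248045 (minus strand) and Ddx21 at chr10:62580247-62602298 (minus strand), and none of these 3 held the motif in its window.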

How the data were processed

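Stranded, single-end polyA RNA-seq of whole muscles was deposited by the authors as raw read counts per gene, 1 column a library; per the labels and the study's methods, reads were checked with FastQC 0.11.2, aligned to mm10 with STAR 2.5.3a and counted over RefSeq exons with HOMER. Here, low counts were removed with filterByExpr (minimum 10), which left 15372 genes in the 16 libraries of 2.5 and 8.5 days and 15478 in all 24; all 47 members passed. edgeR 4.0.16 (R 4.3.3, limma 3.58.1) fitted 8 or 12 groups with TMM factors and the quasi-likelihood test, and p was adjusted over all genes tested by Benjamini-Hochberg; a gene was called at an adjusted p under 0.05 and a log2 fold change beyond 0.5. The study describes the 2 libraries of a group as independent biological samples. Levels are TMM-scaled FPKM from the exon lengths in the table. Library totals were 36088781 to 54679082 counts, and 3 counts were the least taken as detected.

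The members and lists were chosen with earlier results of these data known. Values by library are given for Pol I subunits, core snoRNP proteins, Ncl, Npm1, Myc, the 5 highest and 3 lowest fold changes in each EDL comparison, members called between muscles or called lower, and the 3 most and least abundant; of each further list, for the 2 genes that rose most and the 1 that fell most at 2.5 days. Same-numbered EDL and SOL libraries deviated together (r of 0.126 to 0.501 in all 6 pairs of groups), so the number was used as a replicate block between muscles; Cre+ and Cre- libraries did not (r of -0.232 to 0.0886). Alternatives were other scalings, filters, libraries in the fit, DESeq2 1.42.0, and each library left out. The scripts were tested on simulated data. Plots were drawn with matplotlib 3.10.9.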

Additional observations from a re-analysis of the deposited data

Results flagged for a closer look

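The changes of 2 members differed between muscles at 2.5 days by a test of the difference itself, edgeR's quasi-likelihood test of the change in EDL minus the change in SOL. For Ftsj3 the difference was 1.72 on the log2 scale, with both Cre+ libraries above both Cre- libraries in EDL and in SOL. For Polr1c it was 1.12, with the groups apart in EDL and overlapping in SOL. These values are from the fit without a block. With the replicate block 7 members were called, Ftsj3 and Polr1c among them, against 6.63% of all genes. Neither was called under every library left out: the adjusted p by edgeR ranged from 0.000404 to 0.139 for Ftsj3 and from 0.00827 to 0.145 for Polr1c.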

How the results depend on the processing

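No fold change of a member that was called reversed its direction under any alternative. With library size alone, the median of all genes stood at 0.28 in EDL at 2.5 days, 0.16 in EDL at 8.5 days and 0.18 in SOL at 2.5 days, and 41, 16 and 0 members were called (31.3%, 16.3% and 0.598% of all genes); relative to that median the members stood at 0.66 and 0.40 in EDL, beside 0.64 and 0.40 with TMM. In EDL at 2.5 days 8 members were called from the libraries of the comparison alone (16.8% of all genes), and at 8.5 days 3 from those alone (7.03% of all genes), 11 from all 24 libraries (16.1%) and 14 with DESeq2 (12.4%). In SOL at 2.5 days DESeq2 on the libraries of the comparison called 1 (2.93%). The difference between muscles at 2.5 days had 4 calls with DESeq2's size factors (4.89% of all genes), 5 with library size alone (6.51%), 4 with at least 10 counts in every library (5.64%), 10 with DESeq2 on the same libraries (7.33%), 7 with DESeq2 (6.23%) and 0 with edgeR (2.52%) on the libraries of the comparison, 8 with all 24 libraries (7.48%) and 7 with the replicate block (6.63%). Between Cre- muscles at 2.5 days, where 0 were called, these settings gave 1 with DESeq2's size factors, 2 with library size alone, 2 with DESeq2, 3 with DESeq2 and 2 with edgeR on the libraries of the comparison, 2 with all 24 libraries and 1 without a fold threshold, against 13.1% to 17.9% of all genes; at 8.5 days edgeR on the libraries of the comparison gave 0 (8.64%). The cause of these shifts was not tested.

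Leaving out each library gave 8 to 39 calls in EDL at 2.5 days, 0 to 18 in EDL at 8.5 days, 0 to 20 for the difference between muscles at 2.5 days, 0 to 0 at 8.5 days, 0 to 0 between Cre- muscles at 2.5 days, 0 to 6 at 8.5 days, 0 to 6 for the change between days in EDL, and 0 to 0 in SOL at 2.5 and 8.5 days and in both muscles at 5.5 days. With 1 library left in a group, it was taken to vary as the other groups do. Of the calls, 8 of 23 in EDL at 2.5 days, 0 of 7 at 8.5 days, 0 of 2 between muscles and 0 of 3 between Cre- muscles were kept under every alternative. Cre+ and Cre- libraries share only a number. With a replicate block, 22 members were called in EDL at 2.5 days, against 23.9% of all genes, and 7 at 8.5 days, against 13.8%. Between Cre- muscles at 8.5 days the block gave 4, against 20.5% of all genes. Apart from the difference between muscles at 2.5 days, given above, the block changed no count of calls by over 1.5 times. Counts of members whose libraries did not overlap were also taken on the scaling of all 24 libraries, a choice made after seeing the data. At these depths every member passed the low-count filter.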
